A study of Mus musculus with 6 samples.

Results

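The 10 genes described here belong to the bone morphogenetic protein (BMP) pathway: the ligand genes Bmp4 and Bmp2, the receptor genes Bmpr1a and Bmpr2, the antagonist genes Grem1 and Bambi, and the target genes Smad6, Id1, Id2 and Id3. They were chosen by gene symbol, and all 10 were found among the 21988 symbols of the deposited table. The cells were mouse embryonic fibroblasts (MEFs), the mixed adherent cells grown from embryos of C57BL/6 mice taken at 13.5 days, with no treatment or engineered allele named in the labels. They were harvested at population doubling (PD) 2, 8 and 14, a cumulative measure of how often the culture has doubled. A group consisted of 1 library made by rRNA depletion, strand-specific (replicate 1), and 1 made by poly(A) enrichment (replicate 2), giving 6 libraries over the 3 groups. The labels do not say that the libraries of a group came from separate cultures. Library method was accounted for in the fit, with 1 library per method and group. The spread behind the p-values is thus how far the methods differ in their change between groups, which may be technical.

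BMPs are secreted dimers of the TGF-beta superfamily. They bring type I and type II receptor kinases together, the type I receptor then phosphorylates SMAD1, SMAD5 or SMAD9, and these enter the nucleus with SMAD4. Secreted antagonists such as gremlin, noggin and chordin bind the ligand outside the cell. The ID genes and Smad6 are among the most direct targets: ID proteins bind E proteins and keep them off DNA, and SMAD6 inhibits the receptors and SMADs that induced it. In embryonic mesenchyme the pathway is known for its part in cartilage and bone formation.

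At PD14 compared with PD2, Smad6 and Bmp4 were higher and passed the test, 2 of the 10 genes. Their fitted rises were 1.75 ± 0.24 and 1.09 ± 0.21 on the log2(TPM + 1) scale. The 3 ID genes had fitted values of 0.84 to 1.24 and did not pass. The receptor genes Bmpr1a and Bmpr2 were at 0.14 and -0.02 and did not pass. These are bulk samples, in which fewer cells of a type and less RNA per cell cannot be told apart. TPM is the authors' transcript abundance, scaled for transcript length and library. The test was limma on log2(TPM + 1) with the library method as a block, ± is the standard error (SE) of the fitted difference, n is 2 libraries per group, and the threshold was a Benjamini-Hochberg adjusted p of 0.05 over the 13332 genes tested. All 10 genes passed the filter on low values. Of all genes tested, 11.2% passed in this comparison, 6.41% as higher and 4.77% as lower, where 0 of the 10 genes were called lower. An unadjusted p under 0.05 was found for 4 of the 10 (Bmp4, Smad6, Id2 and Id3), beside 4266 of the 13332 genes tested. Among all genes that passed at the adjusted threshold, the split was 854 higher to 636 lower. It was 736 to 834 under quantile normalization and 707 to 842 with each library centred on its median.

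**Figure D1:**
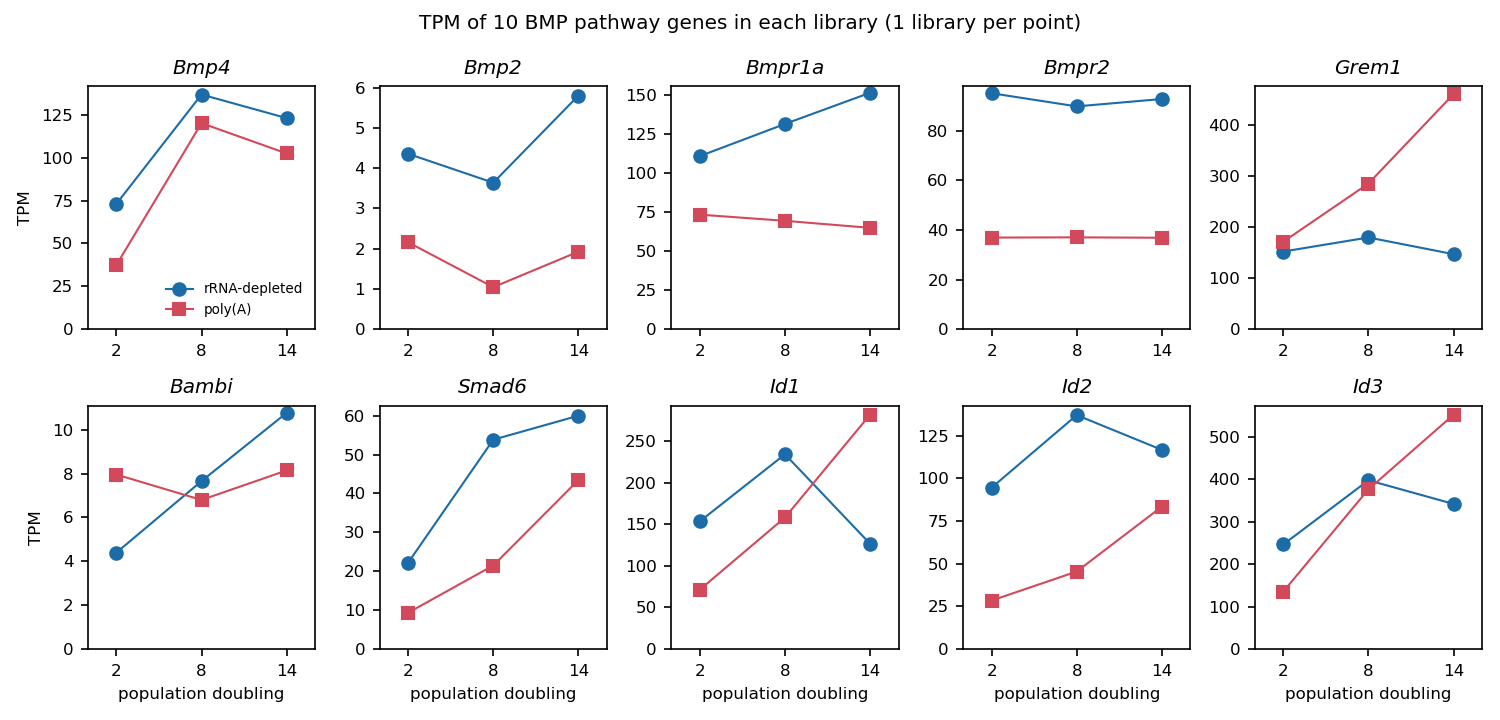
TPM (vertical axis, from 0) of each of the 10 genes against population doubling, with 1 point per library, circles for rRNA-depleted and squares for poly(A) libraries. Bmp4 and Smad6 are lowest at PD2 in both methods, Bmpr2 is nearly level, and Id1 at PD14 stands at 126 TPM by rRNA depletion and 282 TPM by poly(A) enrichment.

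The stretch of DNA before the start of each gene was read because several of these genes had higher values together. SMAD1 and SMAD5 are known to bind GC-rich elements such as GGCGCC and GGAGCC, SMAD3 and SMAD4 the element CAGAC, and E proteins the E-box CANNTG. RefSeq promoter sequences (GRCm38.p6) were searched for 7 of the 10 genes: Bmp4, Bmpr1a, Bmpr2, Grem1, Smad6, Id2 and Id3. The 250 bases before the start were searched on both strands. All 7 held GGCGCC or GGAGCC, against 31.7% of 32851 promoter windows of the same length, from which no chromosome was left out. The count of 7 does not cover Bambi, Id1 or Bmp2. The GC content of the 7 windows was 62.8% to 78.8%, against a median of 52.4% over all windows. CAGAC was found in 2 of the 7 (Grem1 and Id3) and in 42.2% of all windows, and CANNTG in 2 of the 7 (Bmp4 and Id2) and in 66.2% of all windows. The match letters were found in Bmpr1a and Bmpr2 as well as in Smad6 and Bmp4. A match describes letters and is not evidence of binding.

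The windows of Bmp4, Smad6 and Grem1 are shown because they hold the 2 genes that passed and the more abundant of the 2 antagonist genes, and no annotated exon lies in them. They run 5′ to 3′ on the strand of the gene, all on the minus strand, at chr14:46390670-46390919, chr9:64022060-64022309 and chr2:113758649-113758898. Capitals mark GGCGCC or GGAGCC on either strand (GGCTCC is GGAGCC read on the other strand).
Bmp4: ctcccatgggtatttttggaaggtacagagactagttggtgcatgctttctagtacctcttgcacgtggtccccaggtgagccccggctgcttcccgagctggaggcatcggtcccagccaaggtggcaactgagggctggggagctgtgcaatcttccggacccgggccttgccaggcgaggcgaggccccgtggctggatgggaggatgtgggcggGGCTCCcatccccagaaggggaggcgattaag
Smad6: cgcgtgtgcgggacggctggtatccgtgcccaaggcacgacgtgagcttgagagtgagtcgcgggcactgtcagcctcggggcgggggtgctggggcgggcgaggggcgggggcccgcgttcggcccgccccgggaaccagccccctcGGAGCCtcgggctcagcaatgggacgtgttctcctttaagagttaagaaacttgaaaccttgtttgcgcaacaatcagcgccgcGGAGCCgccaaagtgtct
Grem1: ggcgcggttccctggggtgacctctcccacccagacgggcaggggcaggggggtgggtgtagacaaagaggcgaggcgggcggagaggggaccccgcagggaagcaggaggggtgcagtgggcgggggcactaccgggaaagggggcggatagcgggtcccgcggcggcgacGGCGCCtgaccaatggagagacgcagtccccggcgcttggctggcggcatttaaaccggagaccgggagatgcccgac
Smad6 held 2 matches, which began 102 and 18 bases before the start, Bmp4 held 1 at 32 bases and Grem1 1 at 78 bases. The other 4 windows lie partly (Id2 and Bmpr1a) or wholly (Id3 and Bmpr2) in annotated exons. For Id2 and Id3 only the match with 10 bases on each side is shown, at chr12:25096308-25096333 and chr12:25096165-25096190 (Id2, minus strand) and chr4:136143625-136143650 (Id3, plus strand).
Id2, upstream match: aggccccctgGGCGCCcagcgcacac
Id2, downstream match: atgatggacgGGAGCCcttccaccaa
Id3: tcgcatccgaGGCTCCgctgtcctcg

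Bmp4 (chromosome 14, 46383520 to 46390669, mm10) had the highest TPM of the ligand genes listed here in every library. Its product is a ligand for BMPR1A and BMPR2. By rRNA depletion it had 73.1, 137 and 123 TPM at PD2, PD8 and PD14. By poly(A) enrichment it had 37.4, 120 and 102 TPM. Both PD2 libraries lay below all 4 later libraries. The change at PD14 against PD2 was 0.74 by rRNA depletion and 1.43 by poly(A) enrichment on the log2 scale, with a fitted rise of 1.09 ± 0.21 (limma adjusted p = 0.0410). At PD8 against PD2 the fitted value was 1.28 ± 0.21, which did not pass (adjusted p = 0.0927), and at PD14 against PD8 it was -0.19 ± 0.21 (adjusted p = 0.975). The late step minus the early step was -1.47 ± 0.37, with an unadjusted p = 0.0100 and an adjusted p = 0.9996 in limma. An annotated gene on the opposite strand, Gm15217, shares 89 exonic bases with Bmp4, and the labels call only the rRNA-depleted libraries strand-specific, so its poly(A) values are uncertain to that extent.

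Bmp2 (chromosome 2, 133552159 to 133562885) encodes the closest relative of BMP4 and was the lowest of the 10 genes in every library. Its levels were 4.36, 3.64 and 5.80 TPM by rRNA depletion across PD2, PD8 and PD14 and 2.16, 1.04 and 1.93 TPM by poly(A) enrichment. PD8 was the lowest group within each method, while the groups overlapped across methods. The fitted difference was 0.12 ± 0.26 at PD14 against PD2 (limma adjusted p = 0.784, with -0.12 under quantile normalization) and -0.42 ± 0.26 at PD8 against PD2 (adjusted p = 0.414). Bmp4 TPM exceeded Bmp2 TPM 16.8-fold at PD2, 37.6-fold at PD8 and 21.2-fold at PD14 by rRNA depletion, and 17.3-fold, 115-fold and 53.2-fold by poly(A) enrichment.

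The type I receptor gene Bmpr1a (chromosome 14, 34410734 to 34503341) had 111, 131 and 151 TPM by rRNA depletion across PD2, PD8 and PD14 and 73.4, 69.5 and 64.9 TPM by poly(A) enrichment. Its PD14 minus PD2 difference was 0.45 by rRNA depletion and -0.17 by poly(A) enrichment on the log2 scale, so the methods gave opposite signs. The fitted difference of 0.14 ± 0.18 did not pass (limma adjusted p = 0.627), with a 95% interval of -0.31 to 0.58. An annotated antisense gene, Gm17110, shares 290 exonic bases with it and carries the same uncertainty.

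Bmpr2 (chromosome 1, 59763400 to 59879014) encodes the type II receptor that phosphorylates and activates the type I receptor. It had 95.1, 89.8 and 92.8 TPM by rRNA depletion across PD2, PD8 and PD14 and 37.0, 37.0 and 36.9 TPM by poly(A) enrichment. Of the 10 genes it had the smallest fitted change from PD2 to PD14, at -0.02 ± 0.12 (limma adjusted p = 0.929) with a 95% interval of -0.32 to 0.28. Its level differed more between library methods than between passages. Bmp4 stood at 0.659 times the TPM of Bmpr1a at PD2, 1.04 times at PD8 and 0.812 times at PD14 by rRNA depletion, and at 0.510, 1.73 and 1.58 times by poly(A) enrichment.

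Grem1 (chromosome 2, 113746164 to 113758646) encodes gremlin 1, a secreted protein that binds BMP2 and BMP4 and keeps them from their receptors. It had 153, 180.1 and 147 TPM by rRNA depletion across PD2, PD8 and PD14, and 172, 286 and 462 TPM by poly(A) enrichment. The rRNA-depleted libraries therefore held nearly equal levels at PD14 and PD2, while the poly(A) library of PD14 was 2.69 times that of PD2. The fitted difference at PD14 against PD2 was 0.69 ± 0.35 and did not pass (limma adjusted p = 0.238). Without the rRNA-depleted library of PD2 it passed at 1.18 (adjusted p = 0.0469), with the spread taken from the other groups. Grem1 TPM exceeded Bmp4 TPM in every library, by 2.09-fold, 1.32-fold and 1.20-fold by rRNA depletion across PD2, PD8 and PD14 and by 4.59-fold, 2.38-fold and 4.51-fold by poly(A) enrichment.

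Bambi (chromosome 18, 3507923 to 3516404) encodes a membrane pseudoreceptor that resembles a type I receptor but lacks the kinase domain. By rRNA depletion it had 4.39, 7.66 and 10.8 TPM at PD2, PD8 and PD14, and by poly(A) enrichment 7.96, 6.80 and 8.14 TPM. Both PD14 libraries lay above both PD2 libraries, but the 2 poly(A) values were nearly equal (log2 difference 0.03, against 1.13 by rRNA depletion). The fitted difference was 0.58 ± 0.32 and did not pass (limma adjusted p = 0.276).

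Smad6 (chromosome 9, 63953076 to 64022059) had the largest fitted change of the 10 genes. Its product is the inhibitory SMAD of the BMP branch, and it closes a negative feedback loop. Smad6 had 22.2, 53.8 and 60.0 TPM by rRNA depletion across PD2, PD8 and PD14 and 9.33, 21.5 and 43.5 TPM by poly(A) enrichment. Both PD14 libraries lay above both PD2 libraries, and within each method the level was lowest at PD2 and highest at PD14. The PD14 library had 2.70 times the TPM of PD2 by rRNA depletion and 4.66 times by poly(A) enrichment. The fitted rise was 1.75 ± 0.24 (limma adjusted p = 0.0235). At PD8 against PD2 the fitted value was 1.18 ± 0.24 and did not pass (adjusted p = 0.117), and at PD14 against PD8 it was 0.57 ± 0.24 (adjusted p = 0.892).

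The calls of Smad6 and Bmp4 at PD14 against PD2 remained without either PD2 library, where the lone PD2 sample is assumed to vary like the other groups, and were lost without any 1 of the 4 PD8 and PD14 libraries. Adjusted p was then 0.0537 to 0.0815 for Smad6 (fitted 1.37 to 2.13) and 0.0895 to 0.153 for Bmp4 (fitted 0.93 to 1.24). In those 4 fits, 0 to 25 of all genes passed. Without the replicate block the fitted values were the same, but adjusted p was 0.374 for Smad6 and 0.367 for Bmp4, and 0 of all genes passed in limma.

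Id1 (chromosome 2, 152736251 to 152737410), the ID gene most often used as a readout of BMP signalling, had 153, 234 and 126 TPM by rRNA depletion across PD2, PD8 and PD14. By poly(A) enrichment it had 71.3, 158 and 282 TPM. At PD14 the methods thus disagreed: the rRNA-depleted library was the lowest of its method and the poly(A) library the highest of its method. The PD14 minus PD2 difference was -0.28 by rRNA depletion and 1.97 by poly(A) enrichment, with a fitted value of 0.84 ± 0.52 that did not pass (limma adjusted p = 0.321). Both PD8 libraries lay above both PD2 libraries, with a fitted difference of 0.87 ± 0.52 (adjusted p = 0.407). Without the poly(A) library of PD14 the PD14 minus PD2 value was -0.14.

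Id2 (chromosome 12, 25093799 to 25097140) had 94.5, 137 and 117 TPM by rRNA depletion across PD2, PD8 and PD14 and 28.4, 45.4 and 83.5 TPM by poly(A) enrichment. PD2 was the lowest group within each method, while the groups overlapped across methods. The PD14 minus PD2 difference was 0.30 by rRNA depletion and 1.52 by poly(A) enrichment. The fitted difference was 0.91 ± 0.32, with limma unadjusted p = 0.0325 and adjusted p = 0.122.

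Id3 (chromosome 4, 136143497 to 136145755) was the highest of the ID genes in every library. It had 246, 398 and 342 TPM by rRNA depletion across PD2, PD8 and PD14 and 135, 376 and 552 TPM by poly(A) enrichment. Both PD2 libraries lay below the 4 later ones. The PD14 minus PD2 difference was 0.47 by rRNA depletion and 2.02 by poly(A) enrichment. The fitted difference was 1.24 ± 0.36 (limma unadjusted p = 0.0164, adjusted p = 0.0838), and 1.08 ± 0.36 at PD8 against PD2 (adjusted p = 0.194). Id3 passed in both comparisons without the rRNA-depleted library of PD2 (fitted 1.83 and 1.66, adjusted p = 0.00765 and 0.0229), where PD2 was 1 poly(A) library and the spread came from the other groups.

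Summed over the 3 ID genes, the level was 494, 769 and 585 TPM by rRNA depletion across PD2, PD8 and PD14 and 235, 579.8 and 917 TPM by poly(A) enrichment. Id3 made up 49.9%, 51.7% and 58.4% of that sum by rRNA depletion and 57.6%, 64.9% and 60.2% by poly(A) enrichment. Id2 took a larger share by rRNA depletion (17.8% to 20.0%) than by poly(A) enrichment (7.84% to 12.1%).

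Ranked by TPM, which is scaled for length, Id3 was the highest of the 10 genes in 5 of 6 libraries and Grem1 in the poly(A) library of PD2. Bmp2 and Bambi were the lowest 2 in every library. Over all 6 libraries the ranges of Bmp4 (37.4 to 137 TPM), Id2 (28.4 to 137 TPM), Bmpr1a (64.9 to 151 TPM) and Bmpr2 (36.9 to 95.1 TPM) overlapped. Within libraries, the order of Bmp4, Id2 and Bmpr1a changed from library to library, while Bmpr1a was above Bmpr2 in all 6, by 1.17-fold to 1.99-fold. Smad6 (9.33 to 60.0 TPM) was above Bambi (4.39 to 10.8 TPM), and Bambi above Bmp2 (1.04 to 5.80 TPM), in all 6.

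**Figure D2:**
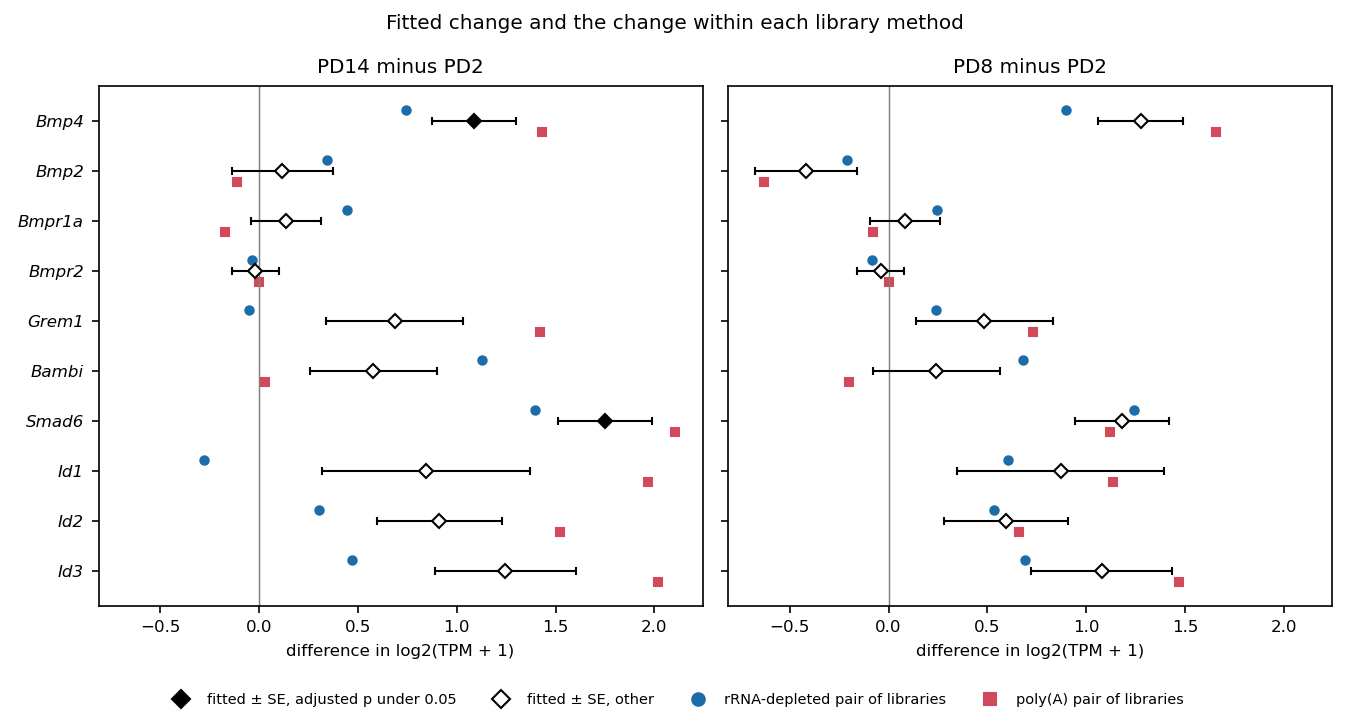
Differences in log2(TPM + 1) for PD14 minus PD2 (left) and PD8 minus PD2 (right). Diamonds are the fitted values of limma with bars of 1 SE, filled where adjusted p was under 0.05, and circles and squares are the differences within the pair of rRNA-depleted and the pair of poly(A) libraries. Only Smad6 (1.75) and Bmp4 (1.09) at PD14 are filled, and the circle and square of Id1 at PD14 (-0.28 and 1.97) lie on opposite sides of 0.

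Considered as a set at PD14 against PD2, 9 of the 10 genes had a fitted value above 0, with a median of 0.76, beside 7316 of the 13332 genes tested and a median of 0.06. Both methods gave a value above 0 for 5 of them (Bmp4, Bambi, Smad6, Id2 and Id3), beside 38.8% of all genes, and below 0 for Bmpr2 alone, beside 30.8%. For 4 of the 10 (Bmp4, Bambi, Smad6 and Id3) both PD14 libraries exceeded both PD2 libraries, beside 22.4% of all genes, and for 0 both lay below, beside 15.8%. The genes were chosen with earlier results of these data known, so these counts describe the list and no test was made of it.

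At PD8 against PD2, 0 of the 10 genes passed in limma and 3 (Bmp4, Smad6 and Id3) had an unadjusted p under 0.05. In that comparison 0.0225% of all genes passed and 20.3% had an unadjusted p under 0.05. Both methods were above 0 for 6 of the 10 (Bmp4, Grem1, Smad6, Id1, Id2 and Id3), beside 37.7% of all genes, and below 0 for Bmp2, beside 31.7%. Both PD8 libraries exceeded both PD2 libraries for Bmp4, Grem1, Id1 and Id3, beside 19.5% of all genes, and 0 had both below, beside 13.7%. Their median was 0.54, beside 0.04 for all genes tested. At PD14 against PD8, 0 of the 10 passed in limma, 0 had an unadjusted p under 0.05 (5.60% of all genes) and 0% of all genes passed; the median was 0.18 beside 0.01. Both methods were above 0 for Bmp2, Bambi and Smad6, beside 27.4% of all genes, and below 0 for Bmp4, beside 25.3%. Bambi alone of the 10 had both PD14 libraries above both PD8 libraries, beside 8.12% of all genes, and 0 had both below, beside 7.07%. By the F test over all 3 groups together, 0 of the 10 and 1.46% of all genes passed in limma, and Smad6 (adjusted p = 0.0585), Bmp4 (0.0731) and Id3 (0.167) had an unadjusted p under 0.05, beside 24.2% of all genes. The late step differed from the early step for 0 of the 10 and 0% of all genes in limma, with Bmp4 alone of the 10 under an unadjusted p of 0.05, beside 4.25% of all genes. The PD8 and PD14 comparisons share the PD2 libraries.

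In a wider list of 70 genes of the pathway, which includes the 10, 63 were tested. Of these, 9 rose and 0 fell at PD14 against PD2 (limma, over all genes tested), with a median of 0.34, beside 6.41% of all genes that rose. With each library centred on its median the split was 6 to 1, as Gdf6, Smad9 and Twsg1 lost their calls and Skil was called lower. Under quantile normalization it was 8 to 0, without Gdf6, Smad9 and Chrd and with Ski and Fstl1. Without the mean-variance trend it was 5 to 1, and Bmp3 was the gene called lower. Outside the 10, the 7 that rose of 53 tested were Gdf6, Pcsk6, Chrd, Twsg1, Nbl1, Smad9 and Atoh8, and the median was 0.20. The count of 9 was 0 without any 1 of the 4 PD8 and PD14 libraries and 14 without the rRNA-depleted library of PD2. At PD8 against PD2, 0 of the 63 passed in limma and 15 had an unadjusted p under 0.05, beside 20.3% of all genes. At PD14 against PD8, 0 passed and 3 had such a p, beside 5.60% of all genes.

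Among 13 ligand genes, 9 were tested and Bmp4 and Gdf6 rose. Gdf6, a BMP-family ligand known from joint and skeletal development, had 4.01, 6.31 and 9.79 TPM by rRNA depletion across PD2, PD8 and PD14 and 6.34, 8.60 and 34.6 TPM by poly(A) enrichment, with a fitted rise of 1.69 ± 0.37 (limma adjusted p = 0.0493). Bmp3 was at -0.97 ± 0.28 and did not pass (adjusted p = 0.0825). The ligand list had a median of 0.12. Bmp7, Bmp8b, Bmp10 and Gdf2 were below the filter, Bmp10 at 0 in all 6 libraries.

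Of 6 proteases that mature ligands or cleave chordin, 1 rose. Pcsk6, a proprotein convertase, had 11.7, 65.4 and 49.7 TPM by rRNA depletion and 7.35, 19.2 and 22.1 TPM by poly(A) enrichment at PD2, PD8 and PD14, with a rise of 1.73 ± 0.29 at PD14 against PD2 (limma adjusted p = 0.0312). The convertase gene Pcsk5 was at 1.01 ± 0.23 (adjusted p = 0.0515). The protease list had a median of 0.49.

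Of 10 receptor and co-receptor genes 0 passed in limma and 1 (Acvrl1) had an unadjusted p under 0.05, beside 32% of all genes. The receptor list had a median of 0.15. The 2 with the largest values were the type I receptor genes Acvrl1 at 0.66 ± 0.22 (adjusted p = 0.109) and Bmpr1b at -0.58 ± 0.23 (adjusted p = 0.160).

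Of 17 antagonist genes, 14 were tested, 3 rose and 0 fell, with a median of 0.58. Nbl1, which encodes the secreted BMP antagonist DAN, had 95.6, 195 and 227 TPM by rRNA depletion across PD2, PD8 and PD14 and 91.7, 177 and 264 TPM by poly(A) enrichment. Its methods gave nearly the same series, and its rise of 1.38 ± 0.14 had the smallest adjusted p of the wider list (limma, 0.0166). Chrd, the ligand-binding protein chordin, was at 6.42, 14.8 and 18.2 TPM and at 4.01, 9.17 and 8.14 TPM in the same order of passages and methods, a rise of 1.12 ± 0.22 (adjusted p = 0.0418). Twsg1, twisted gastrulation, which binds both chordin and BMPs, was at 91.2, 123 and 131 TPM and at 61.3, 98.2 and 114 TPM in that order, a rise of 0.70 ± 0.14 (adjusted p = 0.0408). Fst, the activin-binding protein follistatin, was at 1.47 ± 0.44 and did not pass (adjusted p = 0.0903).

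Among 11 SMADs and their regulators, Smad6 and Smad9 rose and 0 fell, with a median of 0.36. Smad9, the least abundant of the receptor-activated BMP SMADs here, had 3.04, 9.90 and 12.9 TPM by rRNA depletion across PD2, PD8 and PD14 and 1.21, 1.78 and 4.06 TPM by poly(A) enrichment, a rise of 1.49 ± 0.32 (limma adjusted p = 0.0489). The SMAD co-repressor genes Skil and Ski were at -1.56 ± 0.37 and 1.20 ± 0.30 and did not pass (adjusted p = 0.0564 and 0.0628). Skil was called lower with median centring and without the poly(A) library of PD2, and Ski higher under quantile normalization and without the rRNA-depleted library of PD2. Smad9 lost its call under both of these scalings.

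Of 10 BMP-responsive transcription factor genes, the 3 ID genes among them, 1 rose and 0 fell, with a median of 0.88. Atoh8, a basic helix-loop-helix factor, had 16.5, 58.7 and 66.8 TPM by rRNA depletion across PD2, PD8 and PD14 and 3.62, 28.5 and 67.3 TPM by poly(A) enrichment. Both PD2 libraries lay below all 4 later ones, and the rise of 2.92 ± 0.45 (limma adjusted p = 0.0277) was the largest of the wider list. Msx2 and Id4 were at 0.99 ± 0.42 and 0.92 ± 0.31 (adjusted p = 0.179 and 0.115). The E protein genes Tcf3, Tcf4 and Tcf12, whose products ID proteins bind, were at -0.22 ± 0.13, 0.03 ± 0.27 and -0.31 ± 0.11. In limma 0 of the 3 passed (adjusted p = 0.289, 0.958 and 0.131). An unadjusted p under 0.05 was found for 1 of them, Tcf12, beside 32% of all genes.

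**Figure D3:**
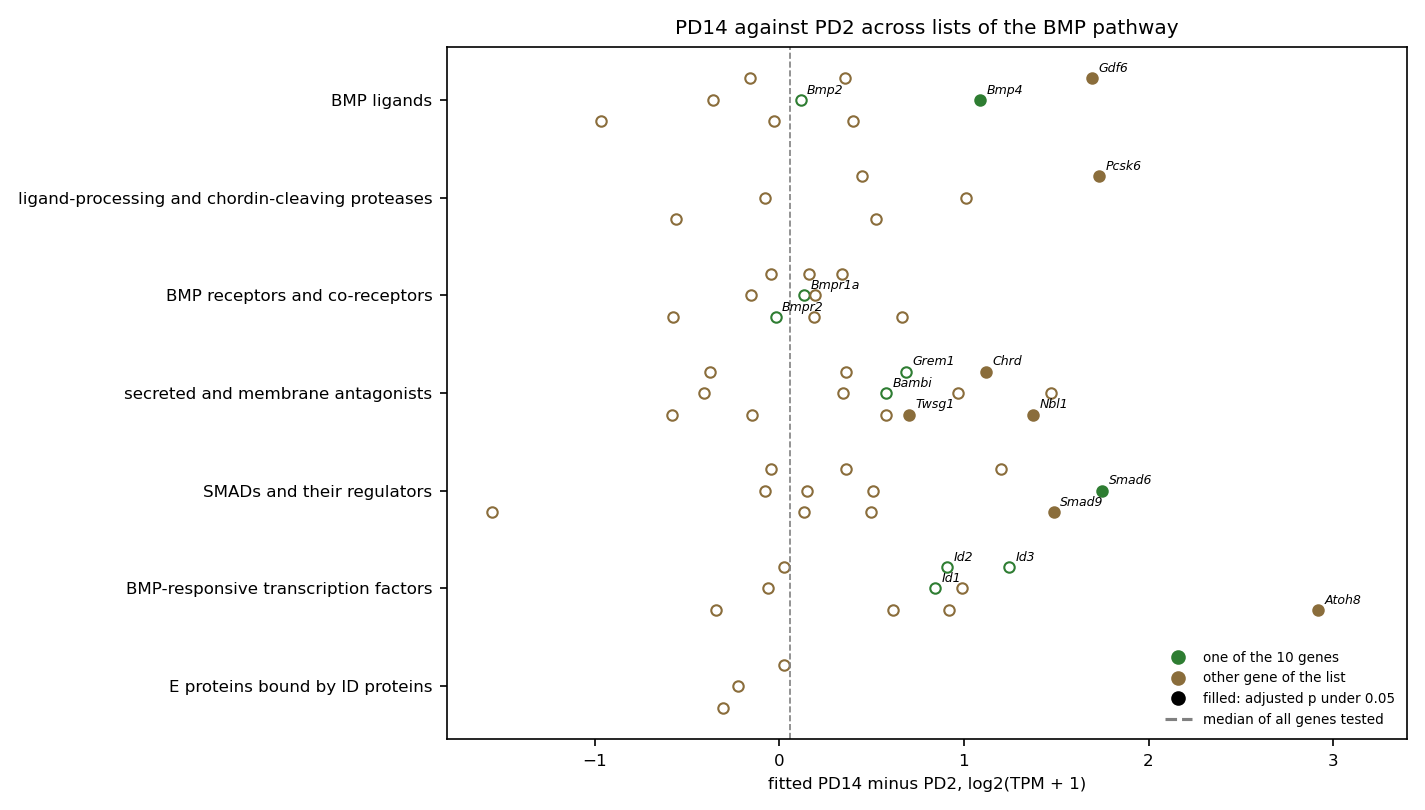
Fitted PD14 minus PD2 differences in log2(TPM + 1) for the 63 tested genes of the wider list, 1 point per gene and 1 row per list (points are spread vertically for legibility). Green points are among the 10 genes, filled points passed at adjusted p under 0.05, and the dashed line is the median of all genes tested, 0.06. The 9 filled points lie between 0.70 (Twsg1) and 2.92 (Atoh8), and no receptor is filled.

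The 6 genes whose pattern lay nearest to that of Id1 were Isg20, Afap1l2, Hist1h2bc, Cacna1a, Hmox1 and Msx2. Likeness was the root mean square difference of log2(TPM + 1) over the 6 libraries, each centred on the mean of its method, and was 0.15 for Isg20 and 0.22 for Msx2. Isg20, for example, had 8.09, 10.7 and 6.86 TPM by rRNA depletion across PD2, PD8 and PD14 and 4.08, 10.0 and 14.6 TPM by poly(A) enrichment. Among the other genes followed, Grem1 (0.24), Id2 (0.26) and Id3 (0.26) lay nearest to Id1, then Bmp4 (0.43) and Smad6 (0.49). The 6 libraries share their passages and methods, so likeness over them is a description. Hist1h2bc has near-identical histone gene copies, and its value is uncertain.

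**Figure D4:**
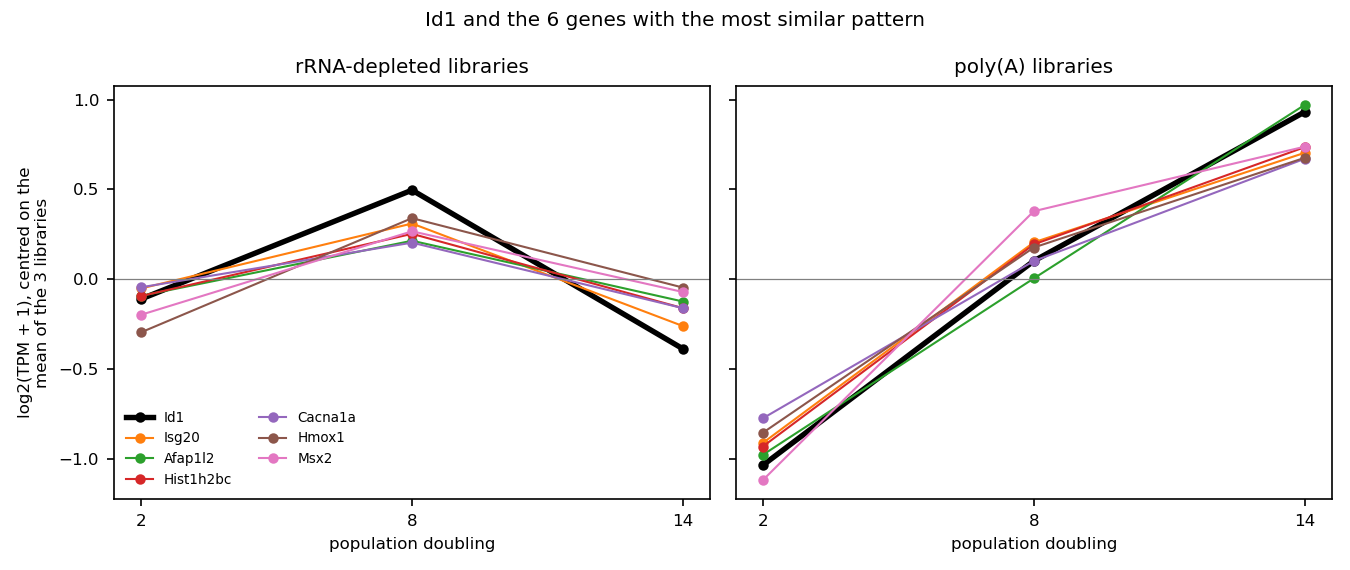
Log2(TPM + 1), centred on the mean of the 3 libraries of a method, against population doubling for Id1 (thick black line) and the 6 genes nearest to it (coloured lines), rRNA-depleted libraries left and poly(A) libraries right. Each gene peaks at PD8 by rRNA depletion and is highest at PD14 by poly(A) enrichment.

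The deposited TPM summed to 937217 to 950531 in the rRNA-depleted libraries and to 1000000 in each poly(A) library. TPM do not hold numbers of reads, and depth is unknown here. A library held 12554 to 12827 genes at 1 TPM or above. All 10 fibroblast markers were tested and 3 rose at PD14 against PD2 (Col3a1, Dcn and Lum). Of all genes tested, 6.41% rose and 4.77% fell in that comparison. Markers of other cell types moved beside the genes above: 4 of 8 skeletal muscle markers (4 tested, Myf5 at 0 in every library) fell at PD14 against PD2, with summed levels of 5.43 to 12.5 TPM at PD14 and 48.8 to 103 TPM at PD2, and 2 of 8 epithelial markers (4 tested) fell, with 2.54 to 6.19 TPM at PD14 and 23.3 to 42.7 TPM at PD2. Of 10 markers of endothelium, in which Smad6 and Id1 are also expressed, 6 were tested and Kdr and Flt1 fell. Of the others tested, Tek (0.33) and Esam (0.36) had fitted values above 0, Erg (-1.09) and Emcn (-0.94) below 0, without passing. Summed over the 10, the level was 31.3 to 69.6 TPM at PD14 and 51.0 to 111 TPM at PD2. Flt1 alone had 13.0 to 62.7 TPM at PD14 and 25.5 to 94.6 TPM at PD2. Pecam1, Cdh5 and Vwf had at most 0.386, 0.182 and 0.563 TPM, and Tie1 was at 0 in every library. Of 13 macrophage and leukocyte markers, 0 passed in limma and 4 had an unadjusted p under 0.05, beside 32% of all genes. Of those 4, C1qa, C1qb and C1qc had fitted values of -1.62, -1.19 and -1.43, and Cd14 of 0.80. Summed, the 13 were at 44.0 TPM at PD14 and 165 TPM at PD2 by rRNA depletion. By poly(A) enrichment they were at 706 TPM at PD14 and 431 TPM at PD2. The largest part of each sum was Lyz2, at 21.7 and 98.5 TPM by rRNA depletion and 569 and 337 TPM by poly(A) enrichment. Of 7 cartilage and bone markers tested, 0 passed in limma and 2 had an unadjusted p under 0.05, beside 32% of all genes. Summed cartilage and bone markers were at 1524 to 3380 TPM at PD14 and 2085 to 2189 TPM at PD2. Most of that sum was Spp1 (794 to 3346 TPM at PD14 and 1977 to 2051 TPM at PD2). Comp, a cartilage matrix gene, had 276 TPM at PD14 and 16.9 TPM at PD2 by rRNA depletion and 4.09 TPM at PD14 and 0.976 TPM at PD2 by poly(A) enrichment, with a fitted difference of 2.66 ± 0.62 (limma adjusted p = 0.0552). Alpl, alkaline phosphatase, was at 1.17 ± 0.31 (limma adjusted p = 0.0721). Of the 7 tested, 4 had a fitted value above 0. Sox9 was at 0.40, Col2a1 at 0.34, Runx2 at -0.06, Spp1 at -0.30 and Acan at -0.52. Col2a1 had 333 TPM at PD14 and 112 TPM at PD2 by rRNA depletion, but 4.16 TPM at PD14 and 8.55 TPM at PD2 by poly(A) enrichment. The tested cartilage and bone markers were named after their values were seen. The part of these cells in the values of the BMP genes was not tested.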

How the data were processed

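The authors deposited 1 table of TPM per gene and library, not pooled. The submitters' processing notes name bcl2fastq, cutadapt 1.14, HISAT2 2.0.5, StringTie 1.3.1c and mm10; the gene annotation is not given in the sources used here. Gene positions came from GENCODE M21 and promoters from RefSeq.

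Values were analysed as log2(TPM + 1), which understates changes of low genes, in R 4.3.3 with limma 3.58.1. The 13332 genes that reached 1 TPM in 2 or more libraries were tested. The model had a term per group and the library method, which equals the replicate number in the labels, as a block, and eBayes used the trend of variance with level (residual degrees of freedom 2, prior 3.22). Deviations from group means correlated at 0.664 to 0.854 between libraries of the same method. Two-sided p-values were Benjamini-Hochberg adjusted over all genes tested. The fit was run on simulated data with a method effect that was the same at every passage. It does not show how the fit behaves where the methods differ by passage. The members, lists and tests were chosen with earlier results of these data known. Named genes were the 10, every wider-list gene that passed at PD14 against PD2, and otherwise up to 2 with the largest value per list. Tcf4, Fstl1 and the tested cartilage and bone markers were added after their values were seen. Only the 250 bases before a start were searched. Alternatives changed the pseudocount, filter, scaling, block, trend and libraries.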

Additional observations from a re-analysis of the deposited data

Results flagged for a closer look

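For 4 of the 10 genes the PD14 minus PD2 difference in log2(TPM + 1) had opposite signs in the library methods. Of all genes tested, both methods were above 0 for 38.8% and below 0 for 30.8%, which leaves the rest without an agreeing sign. The count of 4 is thus not particular to these genes. Each method had 1 library per group, so the difference between methods was not tested. Id1 read -0.28 by rRNA depletion and 1.97 by poly(A) enrichment. Grem1 was at -0.0499 and 1.42 in the same order of methods. Bmpr1a was at 0.45 by rRNA depletion and -0.17 by poly(A) enrichment, and Bmp2 at 0.34 and -0.11. Across all genes, the correlation between the 2 libraries of a group was 0.932, 0.909 and 0.873 across PD2, PD8 and PD14. The mitochondrial share of TPM was 6.82%, 5.57% and 6.00% by rRNA depletion and 6.74%, 4.35% and 3.04% by poly(A) enrichment over the same passages. Their part in the opposite signs was not tested.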

How the results depend on the processing

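Main counts were 2 of the 10 genes at PD14 against PD2 and 9 of the wider list. The 2 genes stayed called with pseudocounts of 0.1 and 0.5, a mean TPM filter of 5, rescaling to 1000000, quantile normalization and median centring. Without a filter on low values 0 of the 10 and 1 of the wider list passed in limma (4 of the 10 had an unadjusted p under 0.05, beside 26.1% of all genes), and without the mean-variance trend 1 of the 10, Smad6. The replicate number marks the library method, so the block is the pairing; without the replicate block 0 of the 10 and 0 of the wider list passed in limma (3 and 8 had an unadjusted p under 0.05, beside 11.4% of all genes). The cause of these losses was not tested.

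Leaving out 1 library gave 0 to 4 of the 10 genes and 0 to 14 of the wider list at PD14 against PD2, 0 to 2 of the 10 at PD8 against PD2 and 0 to 3 of the 10 in the F test; each highest count came without the rRNA-depleted library of PD2. The 0 counts at PD14 against PD2 came with 2 to 6 of the 10 and 18 to 27 of the wider list at an unadjusted p under 0.05 in limma, beside 23.7% to 26.3% of all genes. Bmp2 was below the mean TPM filter of 5 and has no value there.

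Of 447 values of single genes under an alternative, 411 kept their direction and their side of the threshold, 13 lost a call, 4 gained one and 19 turned in direction; none of those 19 had a call to lose. Under a change of setting, Bmp2 turned at PD14 against PD2 with quantile normalization (-0.12) and Bmpr2 at PD14 against PD8 with median centring (-0.012). With 1 library left out, the turned values ranged at PD14 against PD2 from -0.10 to 0.34 for Bmp2, -0.10 to 0.37 for Bmpr1a, -0.048 to 0.010 for Bmpr2 and -0.14 to 1.83 for Id1. At PD8 against PD2 they ranged from -0.15 to 0.32 for Bmpr1a, -0.0061 to 0.98 for Grem1 and -0.25 to 0.74 for Bambi. At PD14 against PD8 they ranged from -0.40 to 0.020 for Bmp4, -0.18 to 0.28 for Bmpr1a, -0.014 to 0.055 for Bmpr2, -0.41 to 0.81 for Grem1, -1.02 to 0.96 for Id1, -0.26 to 0.90 for Id2 and -0.41 to 0.75 for Id3. TPM give no read numbers, so no counting error could be set beside any value.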

Other observations

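Fstl1, a follistatin-like secreted glycoprotein, had 1318, 1695 and 1990 TPM by rRNA depletion across PD2, PD8 and PD14 and 1321, 1707 and 1948 TPM by poly(A) enrichment, the highest maximum of the wider list. Its fitted difference at PD14 against PD2 was 0.58 ± 0.15 and did not pass (limma adjusted p = 0.0705), but was called under quantile normalization. The E protein gene Tcf4 had 219.7, 145 and 167 TPM by rRNA depletion and 41.8, 58.4 and 57.4 TPM by poly(A) enrichment across the same passages. Fstl1 and Tcf4 were chosen after their values were seen.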
